A study of Mus musculus with 4 samples.

Results

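Apolipoproteins are the protein components of the particles that carry lipid in plasma, and the liver secretes most of them. Apolipoprotein B is the structural protein of very low density lipoprotein (VLDL), apolipoproteins A-I and A-II are the main proteins of high density lipoprotein (HDL), and the smaller C apolipoproteins and apolipoproteins A-IV, A-V, E and M ride on or move between particles, where several of them tune lipolysis and uptake. SREBP1c, the product of Srebf1, is a transcription factor of hepatic fatty acid synthesis, so the comparison asks whether the mRNA of these carriers differs in liver that lacks it.

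The 10 genes described are Apoa1, Apoa2, Apoa4, Apoa5, Apob, Apoc1, Apoc2, Apoc3, Apoe and Apom, chosen by name from a table of 23920 genes. They have 14 of its 33170 transcript rows, which were summed per gene number: Apoc3 has 4 rows, Apoc1 has 2 and each of the others has 1. No member was listed at 0 in any library, and all 10 passed the filter on low values.

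Liver RNA was sequenced from male C57BL/6 mice aged 12 weeks, all fasted for 24 h and then given food again for 12 h. There were 2 libraries of the genotype SREBP1c WT and 2 of SREBP1c KO (written WT and KO here), each with its own FPKM column (fragment counts divided by transcript length and by sequencing depth). The sources used here do not say how the KO allele was made, whether the gene is lost in the whole body or whether the WT mice were littermates, and the labels do not say that each library came from a separate animal, so p-values measure the spread between these libraries only. Srebf1 had 63.7 and 58.2 FPKM in WT against 8.63 and 6.97 FPKM in KO, from a single row in which SREBP1c and SREBP1a transcripts cannot be told apart. Of 10 hepatocyte markers 9 were measured, at a summed level of 25222 to 27338 FPKM per library; the exception was Alb, listed at 0 in all 4 libraries although hepatocytes express it at very high levels. In genes of the acute phase response KO replicate 2 differed from the other 3 libraries: Saa1, an acute phase apolipoprotein of HDL, had 65.8 and 87.3 FPKM in WT, 34.7 FPKM in KO replicate 1 and 1244 FPKM in KO replicate 2.

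Of the members 4 lie in a cluster on chromosome 9 and 3 in a cluster on chromosome 7 (mm10, positions from RefSeq). On chromosome 9, Apoa1 spans 46228630 to 46230469, Apoc3 46233050 to 46235636, Apoa4 46240844 to 46243458 and Apoa5 46268608 to 46271921. On chromosome 7, Apoc2 spans 19671579 to 19677941, Apoc1 19689480 to 19692659 and Apoe 19696244 to 19701310, with Apoc4, which is no member, between Apoc2 and Apoc1 at 19678084 to 19681460. Apoa2 is on chromosome 1 (171221564 to 171226379), Apob on chromosome 12 (7977629 to 8016839) and Apom on chromosome 17 (35128997 to 35131801). FPKM is taken over exons, of which the GENCODE transcript matched to Apob has 29, that of Apom 6, that of Apoc2 5, those of Apoa4 and Apoa5 3 each and the leading ones of the other members 4 each. The use of strand is not given in the sources used here, so reads of Apoa4 and Apoa5 cannot be told apart from those of antisense genes that GENCODE places over them, and reads of Apoc2 may be shared with a readthrough gene that spans Apoc4 and Apoc2.

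The sequences before the starts of 3 neighbours of the chromosome 9 cluster are shown because these genes, in 1 cluster, had unlike values across the libraries. They are RefSeq promoter sequences (GRCm38.p6, plus strand, 5′ to 3′), cut where either RefSeq or GENCODE begins the transcript. The capitals mark a match to the letters of an element of HNF4, a nuclear receptor of the hepatocyte, in Apoa4, and an E-box, a site type bound by basic helix-loop-helix factors such as SREBPs, in Apoa5.
Apoa1, chr9:46228380-46228579: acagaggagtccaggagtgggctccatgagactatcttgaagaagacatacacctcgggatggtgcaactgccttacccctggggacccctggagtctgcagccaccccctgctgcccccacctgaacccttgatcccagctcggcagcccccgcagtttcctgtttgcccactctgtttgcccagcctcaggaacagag
Apoa4, chr9:46240594-46240695: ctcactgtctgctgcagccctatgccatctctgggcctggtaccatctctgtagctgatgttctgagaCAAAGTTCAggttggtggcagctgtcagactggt
Apoa5, chr9:46268358-46268607: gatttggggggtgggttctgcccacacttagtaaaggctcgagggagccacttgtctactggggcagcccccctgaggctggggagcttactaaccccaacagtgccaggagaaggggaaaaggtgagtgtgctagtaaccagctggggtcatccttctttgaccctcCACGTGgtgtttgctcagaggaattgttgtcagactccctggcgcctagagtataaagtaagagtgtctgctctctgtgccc

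Promoters of 8 of the 10 members were matched by gene number, and the 250 bases before each start were searched on both strands. The HNF4 letters (CAAAGTTCA or CAAAGTCCA) were found in Apoa4, 182 bases before its RefSeq start, and in 0.715% of all 32851 promoters. The E-box letters CACGTG were found in Apoa5, 82 bases before its first listed start, and in 6.02% of all promoters. The letters TCACCCCAC of a sterol regulatory element were found in none of the 8 and in 0.496% of all promoters, and those of a nuclear receptor half-site (AGGTCA) in Apoa2 and Apoc2 and in 14.0% of all promoters. The motifs do not overlap one another in these members, and a match describes letters only.

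These genes were among the most abundant that the table lists above 0. Alb and 15 of 21 Mup genes, which encode major urinary proteins and of which several are abundant in male liver, are listed at 0 in all libraries, so ranks and shares are among the listed values only. Of the listed FPKM the members made up 8.19% and 9.20% in the WT libraries and 9.83% and 9.20% in the KO libraries. On the FPKM scale, which is per length, the levels fell into 5 tiers that did not touch in any library. Apoa2, a main HDL protein, and Apoe, the ligand through which remnant particles are taken up, were highest, at 10742 to 14763 FPKM, and ranked 1 to 3 among the listed values in every library. Apoa1, the scaffold of HDL, and Apoc1, which inhibits lipoprotein uptake and lipid transfer, followed at 6440.3 to 8879.9 FPKM. Apoc3, an inhibitor of lipolysis and of remnant uptake, and Apoa4, which is secreted on lipid-rich particles, lay between 896 and 3812 FPKM. Apoc2, the activator of lipoprotein lipase, came next at 419 to 580.4 FPKM. Apob, Apom, a carrier of sphingosine 1-phosphate on HDL, and Apoa5, which lowers plasma triglyceride, were lowest at 208 to 335 FPKM. Neighbours within a tier overlapped over the 4 libraries, so Apoa2 and Apoe, Apoa1 and Apoc1, Apoc3 and Apoa4, and Apob, Apom and Apoa5 could not be ordered beyond their spread.

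**Figure D1:**
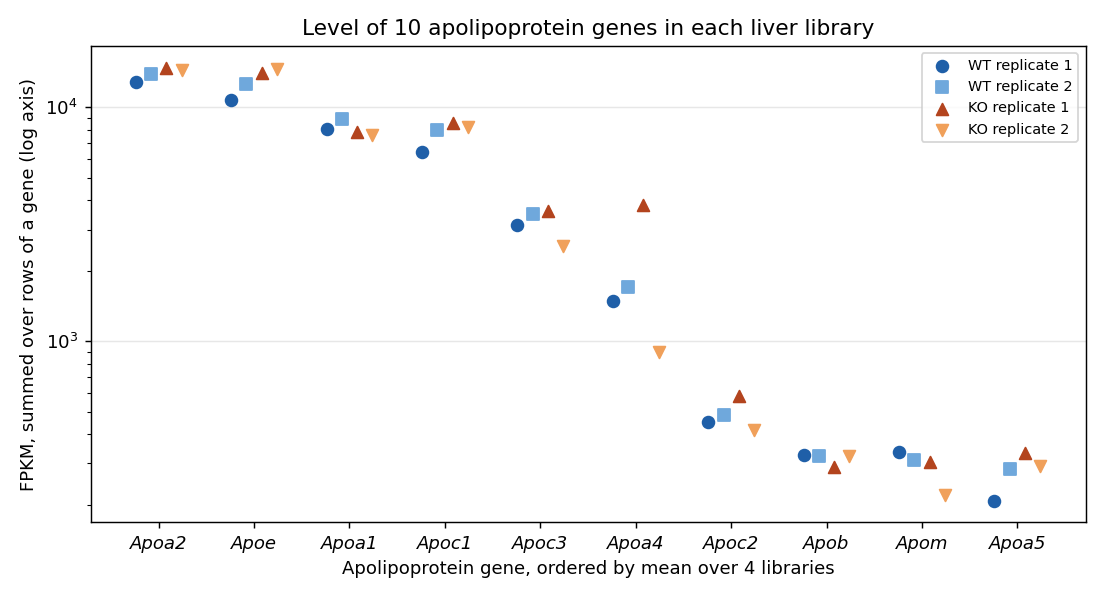
Level of each apolipoprotein gene in FPKM (log axis) in the 2 WT libraries (blue) and the 2 KO libraries (red and orange triangles), 1 point per library, ordered by the mean over the 4 libraries. The points of a gene lie close together except those of Apoa4, which run from 896 FPKM in KO replicate 2 to 3812 FPKM in KO replicate 1.

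None of the 10 genes differed between KO and WT past the limma threshold, an adjusted p under 0.05 over the 9820 genes tested, and 7 genes passed it in all, which is 0.0713% of those tested. The smallest adjusted p of a member was 0.698, for Apoa5, and none had an unadjusted p under 0.05, against 7.75% of all genes tested. The difference in log2(FPKM + 1) between KO and WT, positive where KO was higher, was positive for 6 members and negative for 4. Its median was 0.10, against 0.02 over all genes tested. Both KO libraries lay above both WT libraries for 4 members (22.4% of all genes tested) and below them for 2 (16.4% of all genes tested), so the groups did not overlap for 6, against 38.7% of all genes tested. Whatever is lower or higher in these bulk libraries, a change in the number of cells of a type and a change in RNA per cell cannot be told apart.

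Among the genes of HDL, Apoa1 and Apoa2 had differences of opposite sign. Apoa1 had 8029 and 8879.9 FPKM in WT against 7802 and 7619 FPKM in KO, so both KO libraries were below both WT libraries. The WT mean was 8454 ± 602 FPKM and the KO mean 7711 ± 130 FPKM (SD, n = 2 each), a log2 difference of −0.13 with a 95% interval of −0.62 to 0.36 (limma adjusted p = 0.902). With a WT library left out it was −0.20 (without WT replicate 1) or −0.06 (without WT replicate 2). Apoa2 had 12827 and 13927 FPKM in WT against 14763 and 14482 FPKM in KO, with both KO libraries above both WT libraries (log2 difference 0.13, 95% interval −0.41 to 0.67, limma adjusted p = 0.917), and its difference was 0.07 without WT replicate 1. The KO libraries were nearly equal for both genes, while the WT libraries differed from each other by more than the KO pair did.

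Apom was lowest in KO replicate 2. It had 335 and 309 FPKM in WT against 305 and 221 FPKM in KO, with group means of 322 ± 18.2 and 263 ± 59.4 FPKM (SD, n = 2 each). The log2 difference of −0.31 (95% interval −0.75 to 0.13, limma adjusted p = 0.733) was the most negative among the members. KO replicate 1 was only just below the lower WT library. Without KO replicate 1 the difference was −0.54 and limma called it (adjusted p = 0.039), and without KO replicate 2 it was −0.08 (adjusted p = 0.9). The call rests on a lone KO library that is assumed to vary like the WT pair, and 3.63% of all genes tested were called in the same fit.

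Apoa4 varied far more than any other member. It had 1488 and 1701 FPKM in WT, 3812 FPKM in KO replicate 1 and 896 FPKM in KO replicate 2, so that one KO library lay above and the other below both WT libraries. The KO libraries differed 4.25-fold and the WT libraries 1.14-fold. A gap between the KO libraries as large as that of Apoa4 (2.09 on the log2 scale) was found in 0.356% of all genes tested. The group difference was 0.22 (95% interval −1.32 to 1.75, limma adjusted p = 0.952). With KO replicate 2 left out limma called Apoa4 higher (log2 difference 1.26, adjusted p = 0.00128), and with KO replicate 1 left out it called Apoa4 lower (−0.83, adjusted p = 0.00852). Each of these calls rests on a lone KO library, and the fits called 1.41% of all genes tested without KO replicate 2 and 3.63% without KO replicate 1.

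Apoa4 is also a gene of the small intestine, so enterocyte genes were set beside it. Of 9 enterocyte markers 7 were listed at 0 in all libraries (Lct, Sis, Alpi, Cdx1, Cdx2, Reg3g and Fabp6), and Vil1 had at most 0.084 FPKM. The remaining one, Fabp2, a fatty acid binding protein, had 136 and 138 FPKM in WT against 250.1 and 159 FPKM in KO (log2 difference 0.54, limma adjusted p = 0.644), highest like Apoa4 in KO replicate 1 but with KO replicate 2 above WT. As Alb too is listed at 0 in all libraries, a 0 need not mean that a marker was absent. The part of enterocyte RNA in the level of Apoa4 was not tested. Creb3l3, whose product CREBH activates Apoa4 in liver, had 98.6 and 109 FPKM in WT against 106 and 96.5 FPKM in KO, with overlapping groups. Of the 21 regulators measured 3 were, like Apoa4, highest in KO replicate 1 and lowest in KO replicate 2, or 14.3% against 9.42% of all genes tested. They were Nr1h3, Foxa1 and Foxa2, the last at 11.6 and 10.6 FPKM in WT against 15.5 and 5.57 FPKM in KO, and their part in the level of Apoa4 was not tested. Genes with a like pattern were sought by the distance between log2 values centred on each gene's mean over the 4 libraries, and for Apoa4 this was done after its values were seen. The nearest of all genes tested was the histone gene H3c14, at a root mean square distance of 0.26, with 2.67 and 2.76 FPKM in WT against 4.90 and 0.607 FPKM in KO. The next were Serpine2, Slc25a30 and Onecut1.

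On the log2 scale Apoa5 had the largest difference of the members (by the ratio of mean FPKM that of Apoa4 was larger, at 1.48), and its WT libraries were far apart. It had 208 and 286 FPKM in WT against 331 and 293 FPKM in KO, with means of 247 ± 54.6 and 312 ± 27.1 FPKM (SD, n = 2 each), 1.27-fold higher in KO. The log2 difference was 0.35 (95% interval −0.09 to 0.80, limma adjusted p = 0.698). Both KO libraries were above both WT libraries, but KO replicate 2 exceeded WT replicate 2 only slightly. Leaving out WT replicate 1 lowered the difference to 0.13, and leaving out WT replicate 2 raised it to 0.58.

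Apob, whose product gives each VLDL particle its backbone, was the steadiest member in WT, with 328 and 324 FPKM, against 291 and 324 FPKM in KO. KO replicate 2 lay between the WT libraries. The log2 difference was −0.08 (95% interval −0.39 to 0.22, limma adjusted p = 0.899), the narrowest interval among the members. Without KO replicate 1 it was −0.0075 and without KO replicate 2 −0.16. Apobec1, which encodes the enzyme that edits Apob mRNA, was low, with 6.03 and 5.56 FPKM in WT against 4.74 and 5.05 FPKM in KO (log2 difference −0.21, limma adjusted p = 0.699).

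Apoe and Apoc1, direct neighbours on chromosome 7, followed each other. Apoe had 10742 and 12550.2 FPKM in WT against 14063 and 14496 FPKM in KO, 1.23-fold higher in mean (log2 difference 0.30, 95% interval −0.25 to 0.85, limma adjusted p = 0.788). Apoc1 had 6440.3 and 8003 FPKM in WT against 8596 and 8262 FPKM in KO (log2 difference 0.23, 95% interval −0.30 to 0.76, limma adjusted p = 0.839). For both genes WT replicate 1 was the lowest library and the KO libraries lay close together. Leaving out WT replicate 1 lowered the differences to 0.19 for Apoe and 0.07 for Apoc1. Of all pairs of members these 2 had the most alike profiles, at a root mean square distance of 0.0582 between centred log2 values, and their ratio overlapped between the groups. Members on other chromosomes were nearly as close: Apoc1 lay 0.0861 from Apoa2 and 0.0891 from Apoa5, and Apoe 0.0956 from Apoa2. Apoc2, in the same cluster, lay farther off, at 0.184 from Apoc1 and 0.219 from Apoe. The main row of Apoc1 held 99.1% to 99.2% of the gene in every library.

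Macrophages express Apoe too, so Kupffer cell and macrophage genes were read beside it. All 11 markers were measured, 10 of them with a positive and 1 with a negative difference, none past the threshold, at a median of 0.19. Their summed level was 178 and 148 FPKM in WT against 153 and 251 FPKM in KO, highest in KO replicate 2, and Clec4f, which marks Kupffer cells, had 27.0 and 20.6 FPKM in WT against 19.5 and 35.2 FPKM in KO. Their part in the level of Apoe was not tested.

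Apoc2 and Apoc3 act against each other in plasma, and their libraries were ordered alike. Apoc2 had 453 and 483 FPKM in WT against 580.4 and 419 FPKM in KO (log2 difference 0.08, 95% interval −0.38 to 0.53, limma adjusted p = 0.947). Apoc3 had 3124 and 3485 FPKM in WT against 3583 and 2542 FPKM in KO (log2 difference −0.13, 95% interval −0.68 to 0.42, limma adjusted p = 0.917). Like Apoa4, both were highest in KO replicate 1 and lowest in KO replicate 2, an order found in 9.42% of all genes tested. The sign of Apoc2 turned without KO replicate 1 (−0.16) and that of Apoc3 without KO replicate 2 (0.12). The leading row of Apoc3 held 93.3% to 94.9% of the gene, so the summed value moved with that row.

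**Figure D2:**
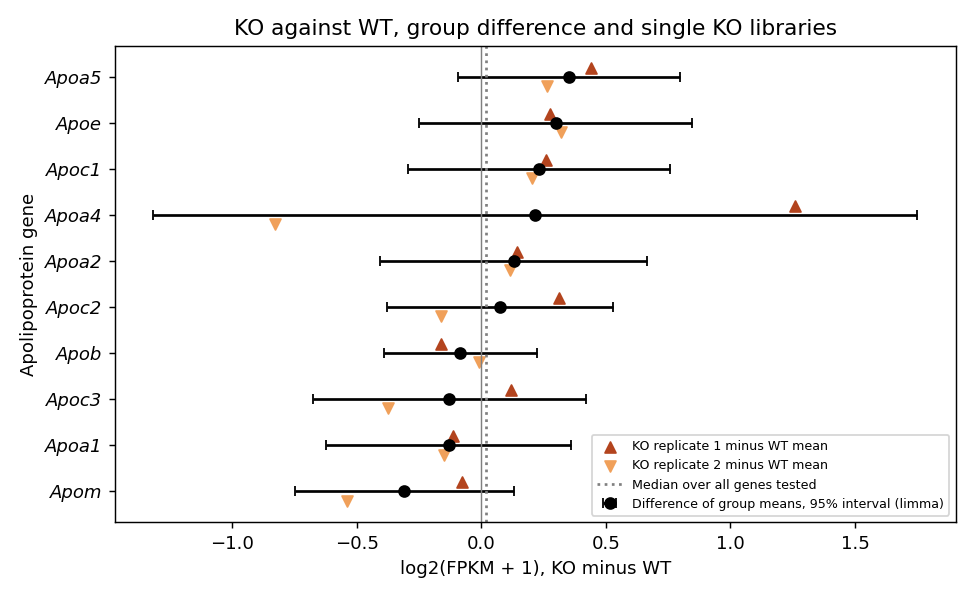
Difference between KO and WT on the log2(FPKM + 1) scale for each gene: black points are differences of group means with 95% intervals from limma, triangles are the 2 KO libraries set against the WT mean, and the dotted line is the median over all genes tested. Every interval spans 0, and that of Apoa4, from −1.32 to 1.75, is the widest, with its KO libraries at 1.26 and −0.83.

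The 2 KO libraries stood differently to WT. Relative to the WT mean, the 10 members had a median of 0.20 in KO replicate 1 but −0.08 in KO replicate 2. WT replicates 1 and 2 lay at −0.08 and 0.08, equal and opposite because their own mean is the reference. Over all genes tested the medians were 0.01 in KO replicate 1, 0.02 in KO replicate 2, 0.02 in WT replicate 1 and −0.02 in WT replicate 2. KO replicate 1 was the highest and KO replicate 2 the lowest library for 3 of 10 members, an order found in 9.42% of all genes tested. KO replicate 2 was below KO replicate 1 for 8 of 10 members, and in 49.5% of all genes tested. The WT pair was split as often: WT replicate 2 was above WT replicate 1 for 8 of 10 members, and in 40.3% of all genes tested. Acute phase genes ran the other way: the median of the 16 measured was −0.41 in KO replicate 1 against 1.02 in KO replicate 2. All 16 had a positive group difference, none past the threshold, at a median of 0.30. The metallothionein genes Mt1 and Mt2 reached 292 and 230.3 FPKM in KO replicate 2, against at most 16.1 and 8.67 FPKM in the other libraries. The part of the acute phase genes in the low Apoa4, Apoc3, Apoc2 and Apom of KO replicate 2 was not tested.

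Within a cluster the libraries were not ordered alike. On chromosome 9 the deviations of KO replicate 2 from the WT mean were −0.15 for Apoa1, −0.38 for Apoc3, −0.83 for Apoa4 and 0.26 for Apoa5, while those of KO replicate 1 were −0.11, 0.12, 1.26 and 0.44 in the same order. Apoa4 thus lay far outside its neighbours in both KO libraries, in opposite directions. Zpr1, the next gene after Apoa5, had 10.7 and 10.8 FPKM in WT against 12.7 and 12.2 FPKM in KO. On chromosome 7, Apoc4 had 1715 and 2077 FPKM in WT against 2410.0 and 1675 FPKM in KO. This is the order of Apoc2, and also of Apoc3 and Apoa4 on chromosome 9, and not that of Apoc1 and Apoe. The part of the readthrough gene over Apoc4 and Apoc2 in their values was not tested. Tomm40, on the other side of Apoe, stayed between 20.6 and 23.3 FPKM in all libraries.

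**Figure D3:**
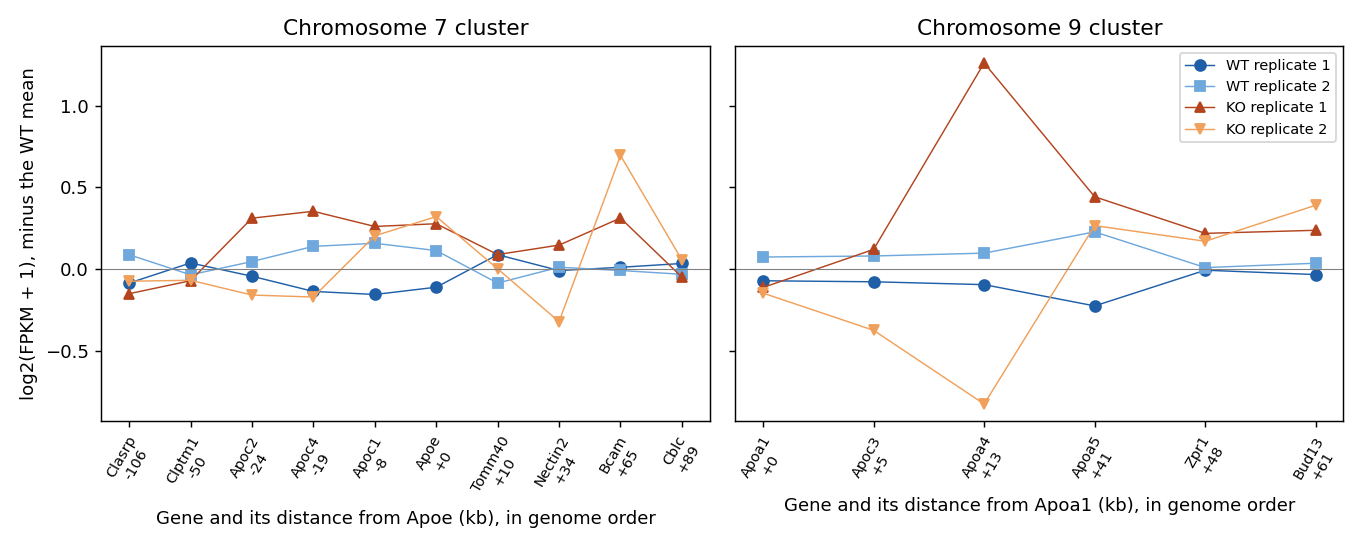
Genes with a mean of at least 1 FPKM lying within 100 kb of the chromosome 7 cluster (left, distances from Apoe) and the chromosome 9 cluster (right, distances from Apoa1), in genome order. The vertical axis is log2(FPKM + 1) minus the WT mean, with 1 line per library. The KO libraries part at Apoa4, to 1.26 and −0.83, and lie close together at Apoe, at 0.28 and 0.32.

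Ratios of FPKM between members within a library do not depend on how that library was scaled. Overlap of pairs was judged on differences of log2(FPKM + 1), which do depend on the scaling, mostly for genes of low level. Of the 45 pairs of members, 20 had ratios that did not overlap between KO and WT, or 44.4%, near the 39.7% of all pairs of genes tested. For Apoa1 over Apoa2 the WT ratios were 0.626 and 0.638, against 0.528 and 0.526 in KO, a gap wider than the spread within either group. For Apoa1 over Apoe they were 0.747 and 0.708 in WT against 0.555 and 0.526 in KO. For Apoc2 over Apoc3 they were 0.145 and 0.138 in WT against 0.162 and 0.165 in KO, although neither gene alone separated the groups. Pairs with Apoa4 overlapped in all 9 cases. These examples were chosen after their values were seen, and the smallest two-sided p that an exact permutation test gives for 2 libraries a group is 0.33.

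**Figure D4:**
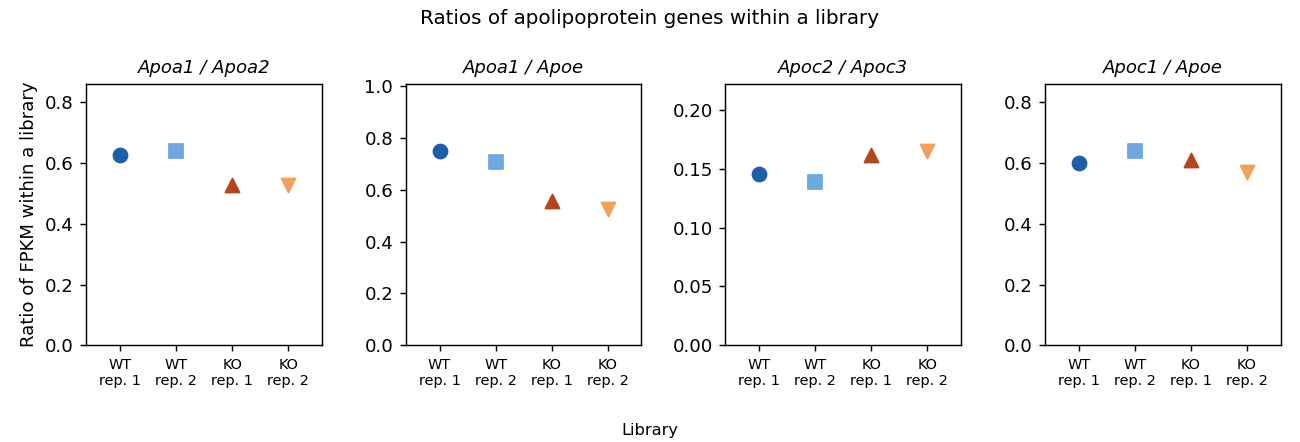
Ratio of the FPKM of 2 apolipoprotein genes within each library, for 4 pairs, 1 point per library, with axes that start at 0. The KO libraries lie below WT for Apoa1 over Apoa2 (0.528 and 0.526) and Apoa1 over Apoe, above WT for Apoc2 over Apoc3, and overlap with WT for Apoc1 over Apoe.

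Genes with profiles like those of the members at both ends were looked for in the same way. Nearest to Apoa5, which had the most positive difference, were Gsn (3.39 and 4.69 FPKM in WT, 5.64 and 4.91 FPKM in KO), Plac9a, Coprs and Agfg2, at distances of 0.0307 to 0.0522 over 4 libraries. Nearest to Apom were Smyd2, Ces1f, Cyp2c67 and Ugt1a5, at 0.0118 to 0.0263. Ces1f, a liver carboxylesterase gene, had 287 and 264 FPKM in WT against 258 and 193 FPKM in KO. Its libraries were ordered like those of Apom, which follows from its choice by nearness to Apom.

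The genes that assemble lipoproteins were measured in full, 14 of 14, with 7 positive and 7 negative differences, a median of −0.00 and none past the threshold. Mttp, the microsomal transfer protein that loads lipid onto apolipoprotein B, had 113 and 97.9 FPKM in WT against 84.2 and 71.5 FPKM in KO. Both KO libraries were below both WT libraries, with a log2 difference of −0.43 (95% interval −0.76 to −0.10, limma unadjusted p = 0.0196, adjusted p = 0.54). Lpcat3, which makes polyunsaturated phospholipid for VLDL, had 33.3 and 31.3 FPKM in WT against 26.2 and 20.4 FPKM in KO (−0.46, adjusted p = 0.527). Pla2g12b, a catalytically inactive phospholipase of VLDL secretion, was at 52.3 and 51.7 FPKM in WT against 62.1 and 58.7 FPKM in KO (0.21, adjusted p = 0.673).

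Of the genes that remodel particles in plasma, 13 of 13 were measured, 7 with a positive and 6 with a negative difference (median 0.01), none past the threshold. Angptl4, an inhibitor of lipoprotein lipase, had 9.47 and 18.1 FPKM in WT against 17.5 and 46.5 FPKM in KO (log2 difference 1.07, limma adjusted p = 0.645), with overlapping groups. Gpihbp1, which holds the lipase on capillaries, had 14.3 and 17.7 FPKM in WT against 17.7 and 23.1 FPKM in KO, and Pon1, an HDL enzyme, 408 and 419 FPKM in WT against 485 and 479 FPKM in KO. Lipc, hepatic lipase, and Pltp, phospholipid transfer protein, overlapped between the groups, with log2 differences of −0.03 and −0.08.

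Among receptors and lipid exporters 8 of 11 were measured, 5 with a positive and 3 with a negative difference (median 0.08), none past the threshold. Lsr, the lipolysis-stimulated lipoprotein receptor, had 153 and 128 FPKM in WT against 114 and 95.6 FPKM in KO (log2 difference −0.42, limma adjusted p = 0.593). Abca1, which lipidates apolipoprotein A-I, had 21.5 and 16.7 FPKM in WT against 14.8 and 15.8 FPKM in KO (−0.29, adjusted p = 0.675). Mylip, which encodes a ubiquitin ligase, had overlapping groups (log2 difference 0.22).

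Other apolipoprotein and editing genes were measured in 16 of 20 cases, 7 with a positive and 9 with a negative difference (median −0.10), none past the threshold, and Apol6 was listed at 0. The serum amyloid genes Saa2, Saa3 and Saa4 were, like Saa1 above, highest in KO replicate 2, at 407, 20.5 and 535 FPKM, and Apol9a, whose copy Apol9b could share its reads, had 36.7 and 30.3 FPKM in WT against 30.8 and 26.2 FPKM in KO. Apoh, a phospholipid-binding plasma protein gene, had both KO libraries below both WT libraries, as Apoa1 did, with 1492 and 1680.5 FPKM in WT against 1423 and 1441 FPKM in KO (log2 difference −0.15, limma adjusted p = 0.859).

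Regulators with known roles at apolipoprotein genes were measured in 21 of 24 cases, 11 with a positive and 10 with a negative difference (median 0.11), and Srebf1 alone passed the threshold. Hnf4a had 120.4 and 106 FPKM in WT against 121 and 143 FPKM in KO (log2 difference 0.21, limma adjusted p = 0.751). Nr1d1, whose product REV-ERBα represses Apoc3, had 9.46 and 11.7 FPKM in WT against 1.32 and 4.16 FPKM in KO (−1.73, adjusted p = 0.308). Nr1h3, encoding the oxysterol receptor LXRα, and Ppara overlapped between the groups, at 0.11 and 0.22. Srebf2 had 13.9 and 14.3 FPKM in WT against 24.2 and 19.7 FPKM in KO (0.59, adjusted p = 0.324).

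Genes of fasting were measured in full, 9 of 9, with 6 positive and 3 negative differences (median 0.11) and none past the threshold. Pdk4 had 5.15 and 3.11 FPKM in WT against 2.15 and 1.62 FPKM in KO (log2 difference −0.81, limma adjusted p = 0.432), while Fgf21 was highest in KO replicate 2, at 5.71 FPKM, and Cyp4a14 lowest there, at 1149 FPKM. The 9 hepatocyte markers measured had a median difference of −0.08, 3 with a positive and 6 with a negative difference, none past the threshold. The largest was that of Cps1, with 620 and 621 FPKM in WT against 362 and 400 FPKM in KO (−0.70, limma adjusted p = 0.246). The most positive was that of Tat (0.35), with overlapping groups. Of 6 cholangiocyte markers 3 were measured, 2 with a positive and 1 with a negative difference, none past the threshold. Spp1 had 21.3 and 20.2 FPKM in WT against 45.5 and 37.0 FPKM in KO (0.95, limma adjusted p = 0.136). Sox9 went the other way with overlapping groups, at 2.20 and 1.44 FPKM in WT against 1.18 and 2.09 FPKM in KO (−0.11).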

How the data were processed

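Liver mRNA of 2 WT and 2 KO samples, grouped by their titles, was read from 1 table of FPKM for each transcript, made by the authors and deposited in this unit, with a column for each library per the file headers. The submitters' processing notes name Bowtie, TopHat and the mm10 build; no version, FPKM program, annotation release or strand setting is stated there. Rows were summed per gene number. Genes with a mean of at least 1 FPKM (9820) entered limma 3.58.1 (R 4.3.3) as log2(FPKM + 1), a scale that understates changes of low genes, with an intensity trend, Benjamini-Hochberg adjustment over all of them and a threshold of 0.05. The method was tested on simulated data whose noise was drawn from the variances that limma itself had fitted. No simulated library stood apart from the others, so this does not cover a library such as KO replicate 2.

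FPKM hides depth: only 46.7% to 50.3% of low values came within 0.1 of whole fragments, so whole reads were not recovered and no count test was run.

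Members, gene lists and tests were chosen with earlier results of these data known. Genes named beside the members are the up to 3 of each pathway list with the smallest p, Srebf1, Mttp, Lipc, Pltp, Apobec1, Creb3l3, Hnf4a, Nr1h3, Ppara and Nr1d1 whatever their result, and the 4 nearest profiles of Apoa5 and Apom; 1 further gene is not reported here. Saa1, Saa2, Saa4, Foxa1, Foxa2, Hba-a1, Hba-a2, Hbb-bs, Alas2, Apoh, Apoc4, Zpr1, Tomm40, Clec4f, Clec4g, Dcn, Cps1, Tat, Spp1, Sox9, Fabp2, Vil1, Cela1 and the profiles nearest to Apoa4 were named after their values were seen. The closing section gives other pseudocounts, filters, scalings, priors, the replicate block, the leading row and each library left out. Further tools were python 3.11.15, numpy 2.4.6, pandas 2.3.3, scipy 1.17.1 and matplotlib 3.10.9.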

Additional observations from a re-analysis of the deposited data

How the results depend on the processing

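None of the 10 apolipoprotein genes was called in 14 of 16 alternatives; the exceptions were 2 genes without KO replicate 1 (Apoa4 and Apom), where 357 genes or 3.63% of all were called, and 1 without KO replicate 2 (Apoa4), where 138 genes or 1.41% were, so the count ran from 0 to 2 with 1 library left out. The median difference of the members was −0.078 once KO replicate 1 was left out and 0.20 once KO replicate 2 was. With 1 library left out, the difference ran from −0.83 to 1.26 for Apoa4, −0.16 to 0.31 for Apoc2 and −0.38 to 0.12 for Apoc3. Apoa2 came to 0 under quantile normalization. The 7 calls over all genes became 11 with a pseudocount of 0.1, 0 with no filter, 3 at a minimum of 5 FPKM, 4 with quantile normalization or the leading transcript row, 15 with a robust variance prior, and 1 (without WT replicate 1) to 357 with a library left out. With the replicate block 19 genes were called and no member. Same-numbered libraries deviated together with a correlation of 0.167 across 9820 genes, and in their labels the 2 groups share only a number. The cause of these shifts was not tested. The depth is not known from FPKM. Low FPKM values implied 22.7 M fragments in WT replicate 1 and KO replicate 1. They implied 20.6 M fragments in WT replicate 2 and KO replicate 2, so same-numbered libraries shared an implied depth. These estimates are uncertain, as only 46.7% to 50.3% of low values came within 0.1 of whole fragments. Whether libraries were paired by number, and what the depth limits, was not tested.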

Other observations

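Endothelial markers were measured in 6 of 6 cases, with a median log2 difference of 0.13 and none past the limma threshold. Their summed level ran from 47.7 FPKM in WT replicate 1 to 63.9 FPKM in KO replicate 2 and was mostly Clec4g, at 29.5 to 41.3 FPKM. Stellate cell markers were nearly level in sum, at 47.7 and 53.0 FPKM in WT against 51.9 and 52.3 FPKM in KO, but this sum was mostly Dcn, at 36.6 to 41.8 FPKM. The sum of the 4 erythroid markers measured was mostly Hba-a1, with 462 and 139 FPKM in WT against 121 and 276 FPKM in KO. Of the 4, 2 had a positive and 2 a negative difference. Hbb-bs and Alas2 were highest in KO replicate 2, at 22.9 and 52.7 FPKM. Hba-a2 was lowest there, with 12.8 and 4.35 FPKM in WT against 5.57 and 0.004 FPKM in KO. Leukocyte markers summed to 10.9 and 12.9 FPKM in WT against 7.75 and 26.3 FPKM in KO, adipocyte markers to at most 1.73 FPKM, and pancreas markers to 13.7 to 25.4 FPKM, nearly all of it Cela1. The part of these cells in the values of the apolipoprotein genes was not tested.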
